A study of Homo sapiens with 10 samples.

Results

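A set of 10 genes was described that lost signal in both SKBR3 and MDA-468 breast cancer cells transfected with an RNA duplex against Che-1, the protein encoded by AATF. They were ATPSCKMT, GET1, PRR11, NT5DC2, REEP1, CEP20, ATL3, EEIG2, AADAT and WDR35. These 10 of the 18417 genes measured were chosen because they fell deeply with siChe-1 in both lines, so their falls are given as a description and are not tested. All 10 passed the filter on low values, which left 12892 genes. The choice was made by name and not by a fixed depth. When genes were ranked by the shallower of their falls in the lines, the 10 held ranks 1 to 7 and 9 to 11, with HMMR at rank 8.

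Both are established lines that the labels describe as breast cancer cells with mutant p53, grown in RPMI medium with fetal calf serum. Expression was read on Affymetrix whole-transcript arrays from total RNA taken 48 h after transient transfection with a control duplex (siControl) or the duplex against Che-1 (siChe-1). SKBR3 contributed 2 arrays with siControl and 2 with siChe-1, and MDA-468 3 of each, so every group had been transfected with a duplex. Replicates are not said to come from separate cultures, so p-values cover no more than the spread between these samples, and that spread may be technical. A single reagent against AATF is named, so a response to loss of AATF and a response to that duplex cannot be told apart. The sequence of the duplex was not given in the sources used here, and a match between it and the 10 transcripts was not tested. In such bulk RNA, fewer cells of a type and less RNA per cell cannot be told apart either.

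The 10 genes do not form a known pathway. ATL3, REEP1 and GET1 act in the membrane of the endoplasmic reticulum, where atlastins fuse tubules, REEP proteins bend the membrane and the GET complex inserts proteins anchored by their tail. ATPSCKMT and AADAT are mitochondrial enzymes, CEP20 and WDR35 serve the centrosome and the cilium, PRR11 acts in cell division, and NT5DC2 and EEIG2 are less well described. In RNA interference a duplex lowers the transcript it matches, can lower others that match its seed, and in some cells also switches on the interferon response to double-stranded RNA.

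AATF was the yardstick for depth. Its log2 value was 8.69 and 8.68 on the SKBR3 siControl arrays and 8.09 and 7.97 on the siChe-1 arrays. In MDA-468 it read 8.86, 8.87 and 8.90 with siControl and 7.08, 7.13 and 7.29 with siChe-1. No siChe-1 array overlapped with a siControl array of its line. The change was -0.66 in SKBR3 (95% interval -0.87 to -0.45, limma adjusted p = 0.000778), which left 63.3% of the control signal, and -1.71 in MDA-468 (-1.88 to -1.54, adjusted p = 2.16e-08), which left 30.5%. A limma model over all 10 arrays gave these values, with Benjamini-Hochberg adjustment over the genes tested, and a gene past an adjusted p of 0.05 is called below.

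The receptor genes ERBB2 and EGFR set the lines apart. ERBB2, the receptor kinase amplified in SKBR3, had a mean siControl log2 value of 12.33 in SKBR3 and 8.29 in MDA-468. EGFR stood at 7.91 in SKBR3 and 12.25 in MDA-468. As a list, the 6 luminal markers, ERBB2 among them, differed less between the lines. Their siControl array mean was 11.19 to 11.28 in SKBR3 and 10.58 to 10.62 in MDA-468. With siControl, 4 of 4 measured lymphocyte markers lay below the filter level of 6.03 in SKBR3 and 3 of 4 in MDA-468, as did 3 of 5 and 2 of 5 fibroblast markers. Among them were PTPRC of lymphocytes (3.25 and 4.03) and DCN of fibroblasts (3.33 and 3.55). Replicate arrays correlated with r of 0.978 or more over the genes tested, and the lowest value belonged to the SKBR3 siChe-1 pair. The shares of all genes tested that were called higher with siChe-1 were 6.64% in SKBR3 and 16.4% in MDA-468. Interferon-stimulated genes moved with the same contrast: 11 of 11 measured genes of a list of 12 rose in each line, with median changes of 6.47 in SKBR3 and 5.75 in MDA-468. Their mean log2 value per array was 5.27 to 5.32 with siControl and 11.78 to 11.86 with siChe-1 in SKBR3, and 6.51 to 6.55 and 12.23 to 12.37 in MDA-468. Their part in the falls described here was not tested. In MDA-468 the 4 measured of 6 basal markers also rose, from an array mean of 9.76 to 9.91 with siControl to one of 10.91 to 11.05 with siChe-1. In SKBR3 the basal range was 6.89 to 7.01 with siControl and 7.11 to 7.24 with siChe-1. The fibroblast range in MDA-468 was 5.28 to 5.39 with siControl and 5.42 to 5.56 with siChe-1, and 1 of 3 tested fibroblast markers was called higher. The SKBR3 fibroblast ranges overlapped, as did the luminal and lymphocyte ranges in both lines. In MDA-468, 1 of the 6 luminal markers was called higher and 2 lower, where 16.4% of all genes tested were called higher and 27% lower. These luminal counts lie near those shares and are no result about the markers. The part of the markers in the falls was not tested.

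Each of the 10 genes read lower on all siChe-1 arrays than on any siControl array of the same line. In all genes tested, 37.8% were separated in this way in SKBR3, 36% in MDA-468 and 22.4% in both, and the choice of the members fixes their own count. The median change of the 10 was -1.31 in SKBR3, which left 40.5% of control, and -1.53 in MDA-468, which left 34.7%. Over all genes tested the median change was -0.08 in SKBR3 and -0.02 in MDA-468.

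**Figure D1:**
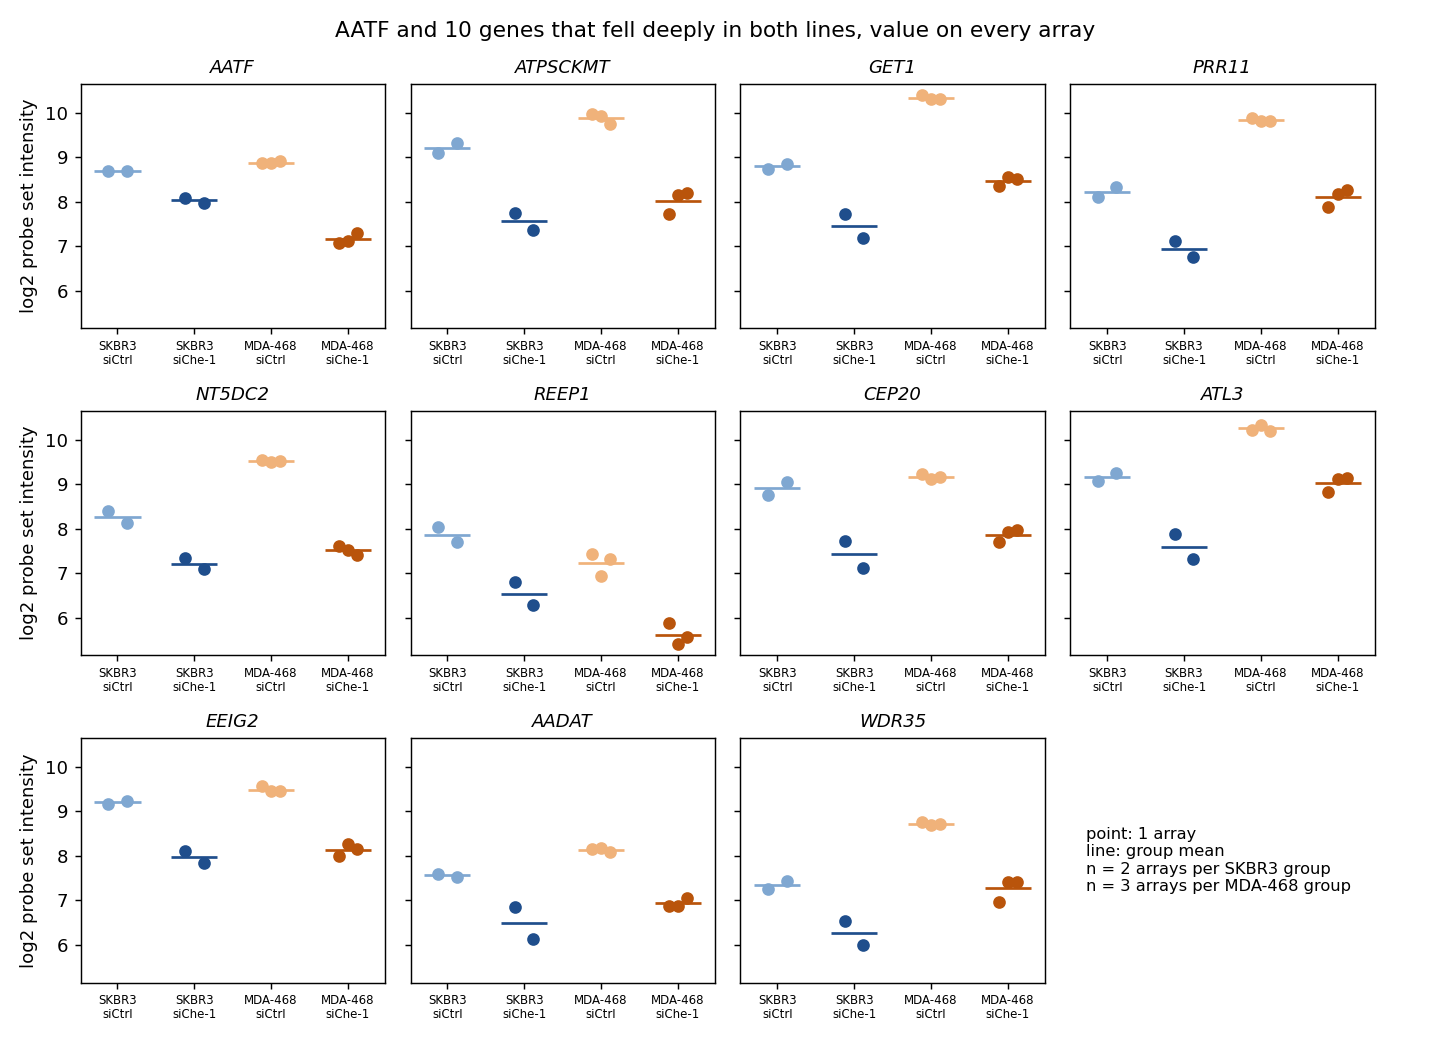
Log2 probe set intensity of AATF and the 10 genes on each of the 10 arrays; points are arrays and lines are group means (n = 2 per SKBR3 group, n = 3 per MDA-468 group). In each panel all siChe-1 points lie below the siControl points of the same line.

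ATL3 is a GTPase that fuses tubules of the endoplasmic reticulum. Its log2 value was 9.06 and 9.26 with siControl and 7.88 and 7.32 with siChe-1 in SKBR3, and 10.22, 10.34 and 10.20 against 8.82, 9.12 and 9.15 in MDA-468. The groups stood apart in both lines, and the lower SKBR3 siChe-1 array was replicate 2. The change was -1.56 ± 0.17 (SE) in SKBR3, the second lowest of all genes tested there (rank 2), and -1.22 ± 0.14 in MDA-468. ATL3 has a pair of probe sets on this array, and the brighter was used. The other gave 8.48 and 8.57 against 8.19 and 7.31 in SKBR3 and 10.05, 9.94 and 9.99 against 9.13, 9.22 and 9.43 in MDA-468. Its groups were also separate, but its changes were smaller, -0.78 and -0.73, so the depth of the ATL3 fall depended on the probe set.

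REEP1, a hairpin protein that shapes the endoplasmic reticulum and is mutated in hereditary spastic paraplegia, read 8.04 and 7.70 with siControl and 6.79 and 6.29 with siChe-1 in SKBR3. In MDA-468 it read 7.43, 6.93 and 7.32 against 5.89, 5.40 and 5.58. All 3 MDA-468 siChe-1 values lay under the filter level of 6.03, where RMA values can understate a fall. The change was -1.33 ± 0.22 in SKBR3 and -1.60 ± 0.18 in MDA-468, with the largest standard errors of the 10.

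GET1, formerly WRB, is a subunit of the receptor that takes tail-anchored proteins from GET3 and inserts them into the membrane. With siControl it read 8.74 and 8.85 in SKBR3 and 10.40, 10.30 and 10.30 in MDA-468. With siChe-1 it read 7.72 and 7.19 in SKBR3 and 8.34, 8.56 and 8.50 in MDA-468. The MDA-468 arrays lay close together within each group, while the SKBR3 siChe-1 pair was 0.53 apart. GET1 changed by -1.34 ± 0.15 in SKBR3 and by -1.86 ± 0.12 in MDA-468, to 39.4% and 27.5% of control.

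ATPSCKMT, formerly FAM173B, methylates a lysine of the c subunit of mitochondrial ATP synthase. It read 9.09 and 9.31 with siControl and 7.75 and 7.36 with siChe-1 in SKBR3. In MDA-468 it read 9.96, 9.92 and 9.75 against 7.72, 8.14 and 8.20. Both lines kept the groups more than 1 log2 unit apart, as the lowest siControl and the highest siChe-1 values show. Its change of -1.64 ± 0.17 was the lowest of all 12892 genes tested in SKBR3, and the change of -1.86 ± 0.14 ranked 27 in MDA-468. This left 32.0% of the SKBR3 and 27.6% of the MDA-468 control signal.

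AADAT, the mitochondrial aminotransferase that acts on kynurenine and on the lysine product aminoadipate, had siControl values of 7.60 and 7.54 in SKBR3 and 8.15, 8.18 and 8.10 in MDA-468. Its siChe-1 values were 6.85 and 6.15 in SKBR3 and 6.87, 6.87 and 7.07 in MDA-468. The SKBR3 siChe-1 pair lay 0.71 apart, the widest gap of the 10 genes, while its siControl pair nearly coincided. AADAT changed by -1.07 ± 0.18 in SKBR3 and by -1.21 ± 0.15 in MDA-468, where its fall was the shallowest of the 10.

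CEP20, formerly FOPNL, sits at centrioles and centriolar satellites and is needed to build cilia. It read 8.76 and 9.05 with siControl and 7.74 and 7.12 with siChe-1 in SKBR3, and 9.22, 9.12 and 9.16 against 7.71, 7.93 and 7.97 in MDA-468. The siControl and siChe-1 arrays stood apart in both lines, and the SKBR3 siChe-1 pair was 0.61 apart. CEP20 changed by -1.47 ± 0.18 in SKBR3 and by -1.30 ± 0.14 in MDA-468. WDR35 is a subunit of the intraflagellar transport complex that returns cargo to the base of the cilium. Its values were 7.25 and 7.44 against 6.54 and 6.01 in SKBR3 and 8.76, 8.70 and 8.72 against 6.97, 7.42 and 7.41 in MDA-468. The lower SKBR3 siChe-1 value lay at the filter level, and the groups stood apart in both lines. The changes were -1.07 ± 0.18 in SKBR3 and -1.46 ± 0.15 in MDA-468.

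PRR11, a proline-rich protein linked to mitosis, read 8.11 and 8.32 with siControl and 7.11 and 6.75 with siChe-1 in SKBR3. In MDA-468 it read 9.89, 9.82 and 9.82 against 7.88, 8.17 and 8.25. The groups did not overlap in either line, and the MDA-468 siControl arrays were almost equal. Its change was -1.28 ± 0.15 in SKBR3 and -1.74 ± 0.12 in MDA-468.

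NT5DC2 carries a nucleotidase domain. It read 8.40 and 8.12 with siControl and 7.34 and 7.10 with siChe-1 in SKBR3, and 9.54, 9.50 and 9.52 against 7.62, 7.53 and 7.42 in MDA-468. It had the shallowest fall of the 10 in SKBR3 and the deepest in MDA-468, with changes of -1.04 ± 0.12 and -2.00 ± 0.10. EEIG2, formerly FAM102B, is a relative of EEIG1, an estrogen-induced gene. Its values were 9.16 and 9.24 against 8.11 and 7.84 in SKBR3 and 9.56, 9.45 and 9.46 against 8.01, 8.27 and 8.15 in MDA-468. The arrays of each group were close, and the changes were -1.22 ± 0.12 in SKBR3 and -1.35 ± 0.10 in MDA-468.

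In MDA-468 the fall was deeper than in SKBR3 for 8 of the 10 genes. Subtracting the MDA-468 change from the SKBR3 change gave 0.96 for NT5DC2, 0.52 for GET1, 0.45 for PRR11, 0.39 for WDR35, 0.28 for REEP1, 0.22 for ATPSCKMT, 0.14 for AADAT and 0.13 for EEIG2. For CEP20 (-0.18) and ATL3 (-0.34) the SKBR3 fall was deeper. AATF itself had a difference of 1.05, larger than that of any of the 10. These differences come from the contrasts that chose the members and carry no test.

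**Figure D2:**
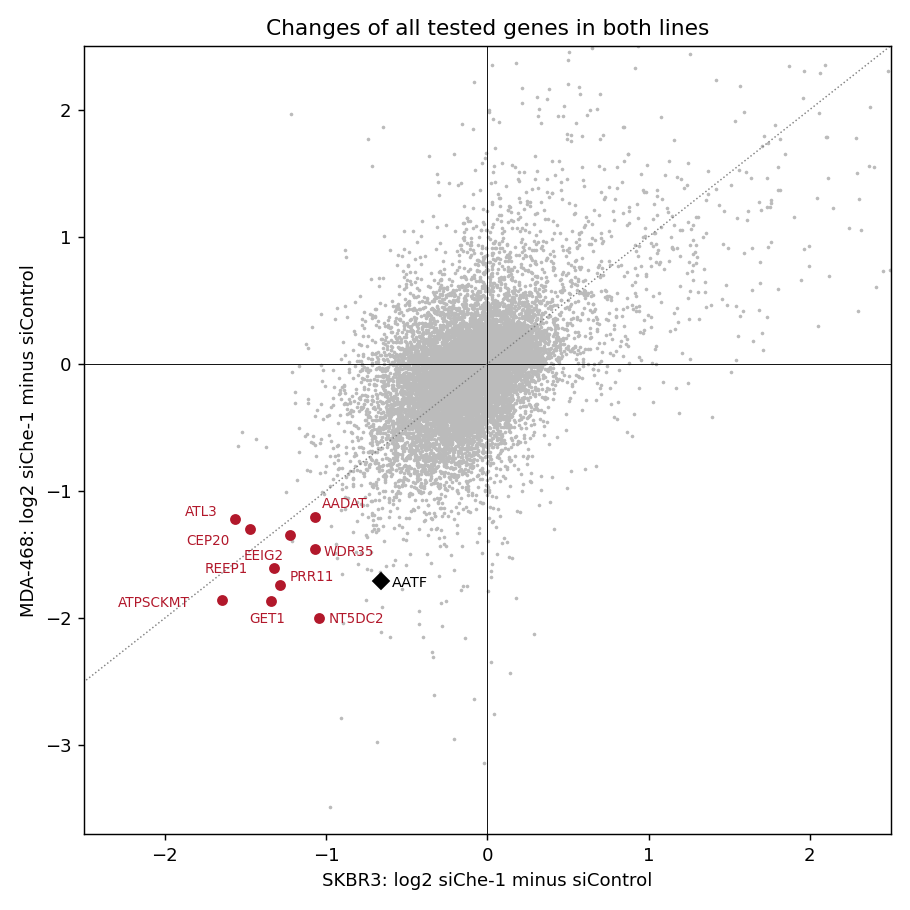
Change with siChe-1 in SKBR3 (x axis) and MDA-468 (y axis), log2 siChe-1 minus siControl, for 12769 of the 12892 genes tested; 123 lie outside the axes. Red points are the 10 genes, the black diamond is AATF and the dotted line marks equal change. The 10 lie at or below -1.04 in SKBR3 and -1.21 in MDA-468, and 8 of them lie below the dotted line.

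Beside AATF, the depth of the 10 differed between the lines. In SKBR3 all 10 fell further than AATF, from 1.58 times its log2 change for NT5DC2 to 2.49 times for ATPSCKMT. There 444 of the genes tested, 3.44%, were below AATF. In MDA-468 NT5DC2 (1.17 times), ATPSCKMT (1.09), GET1 (1.09) and PRR11 (1.02) fell further than AATF. The other 6 reached 0.706 (AADAT) to 0.936 (REEP1) of its log2 change, and 35 genes in all, 0.271%, were below it.

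Array by array, the gap to AATF held in SKBR3 and was mixed in MDA-468. On SKBR3 siChe-1 replicate 1, AATF lay 0.60 below its siControl mean, and the 10 genes ran from -0.72 (AADAT) to -1.45 (ATPSCKMT), with a median of -1.08. On replicate 2, AATF lay at -0.72 and the 10 from -1.16 (NT5DC2) to -1.84 (ATL3), with a median of -1.52. On both arrays 10 of 10 were below AATF. On MDA-468 siChe-1 replicate 1, where AATF lay at -1.80, the median of the 10 was -1.62 and 4 were below AATF. On replicate 2 (AATF -1.75) the median was -1.49 with 3 below, and on replicate 3 (AATF -1.59) it was -1.46 with 5 below. ATPSCKMT was the lowest on MDA-468 replicate 1, at -2.16, and NT5DC2 on the other two, at -1.99 and -2.11.

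**Figure D3:**
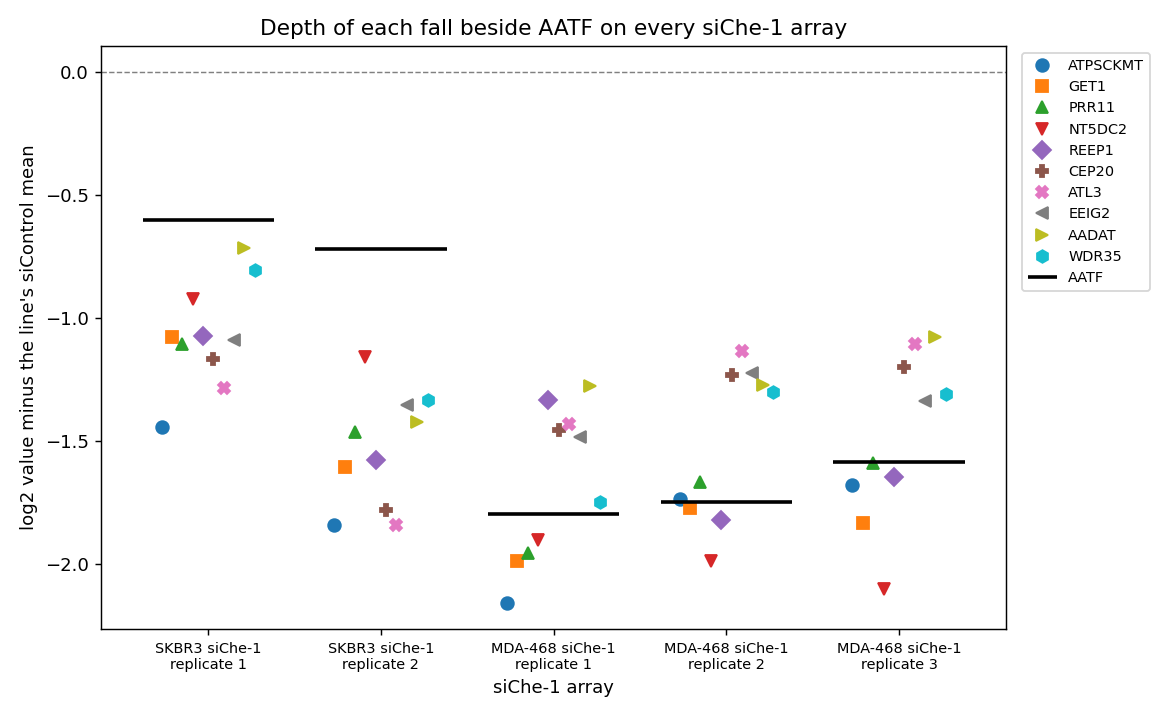
Log2 value on each of the 5 siChe-1 arrays minus the siControl mean of its line (y axis), for the 10 genes (symbols) and AATF (black bars). All symbols lie below the bar on both SKBR3 arrays; 4, 3 and 5 do on MDA-468 replicates 1, 2 and 3.

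The siChe-1 arrays of SKBR3 were not equal for these genes. All 10 were lower on replicate 2 than on replicate 1, by 0.24 (NT5DC2) to 0.71 (AADAT), as were 2014 of the 2201 genes called lower in SKBR3 (91.5%) and 7645 of all genes tested (59.3%). AATF was lower there too, by 0.12. The interferon list had an array mean of 11.86 on replicate 1 and 11.78 on replicate 2. Without siChe-1 replicate 2 the median change of the 10 in SKBR3 was -1.08, and without replicate 1 it was -1.52. In MDA-468, 8 of the 10 were lowest on siChe-1 replicate 1, the array with the lowest AATF, while REEP1 was lowest on replicate 2 and NT5DC2 on replicate 3. Of the 3483 genes called lower in MDA-468, 1456 (41.8%) were lowest on siChe-1 replicate 1, as were 4848 of all genes tested (37.6%). The median SD of the 10 was 0.141 with siControl and 0.365 with siChe-1 in SKBR3, and 0.0559 and 0.16 in MDA-468.

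The least deep member was NT5DC2, with a shallower change of -1.04, preceded by WDR35 and AADAT, each at -1.07. Just outside lay MSL3B (-1.03 in SKBR3 and -1.01 in MDA-468), TAF9B, a subunit of the general transcription machinery (-1.01 and -1.02), and BLOC1S6, which helps to form lysosome-related organelles (-1.25 and -1.01). CYP4Z2P, a cytochrome pseudogene (-0.98 and -3.49), IGFBP5, which binds insulin-like growth factors (-0.97 and -1.27), and ZMAT3, an RNA-binding zinc finger protein (-0.98 and -0.96), followed. The long noncoding RNA DLEU1 (-0.94 and -1.48), the glucocorticoid-induced leucine zipper TSC22D3 (-0.94 and -1.42) and TIMM21, which helps to import proteins into mitochondria (-0.93 and -1.53), came next. HMMR, a hyaluronan receptor that also acts at the mitotic spindle, was inside the range of the members at -1.21 and -1.39 but is not among them. These values stand as a description of where the list ends.

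Likeness of pattern was measured as the root mean square distance, over the 5 siChe-1 arrays, from the median profile of the 10. HMMR was the closest gene outside the list at 0.204 log2 units, followed by DLEU1 (0.232), TIMM21 (0.238), TSC22D3 (0.263) and TMEM19 (0.284; changes of -0.90 and -1.65). Among the 10, EEIG2 (0.161), PRR11 (0.184) and WDR35 (0.194) lay nearest their own median, and ATPSCKMT (0.357) and NT5DC2 (0.425) farthest. The arrays of a line share its siControl mean and all 5 share a single duplex, so these distances only describe shape.

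Levels in control cells were compared between the lines. The siControl arrays also entered the contrasts that chose the members, so these differences are not independent of the choice and are given with 95% intervals of the limma fit as a description, with no test. The array medians were 6.36 to 6.45 in SKBR3 but 6.87 to 6.94 in MDA-468, so each array was centred on its median first. On this scale the SKBR3 siControl mean minus the MDA-468 siControl mean was -1.13 for PRR11 (-1.46 to -0.81) and -1.04 for GET1 (-1.37 to -0.71). WDR35 had a difference of -0.89 (-1.28 to -0.49), NT5DC2 one of -0.77 (-1.02 to -0.52) and ATL3 one of -0.60 (-0.97 to -0.22), which was -0.48 without SKBR3 siControl replicate 1. REEP1 was higher in SKBR3, with a difference of 1.13 (0.70 to 1.56). The intervals of the other 4 included 0, at -0.56 to 0.20 for ATPSCKMT, -0.15 to 0.62 for CEP20, -0.06 to 0.47 for EEIG2 and -0.46 to 0.30 for AADAT. Without centring the values of CEP20 (-0.26) and EEIG2 (-0.29) changed sign.

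**Figure D4:**
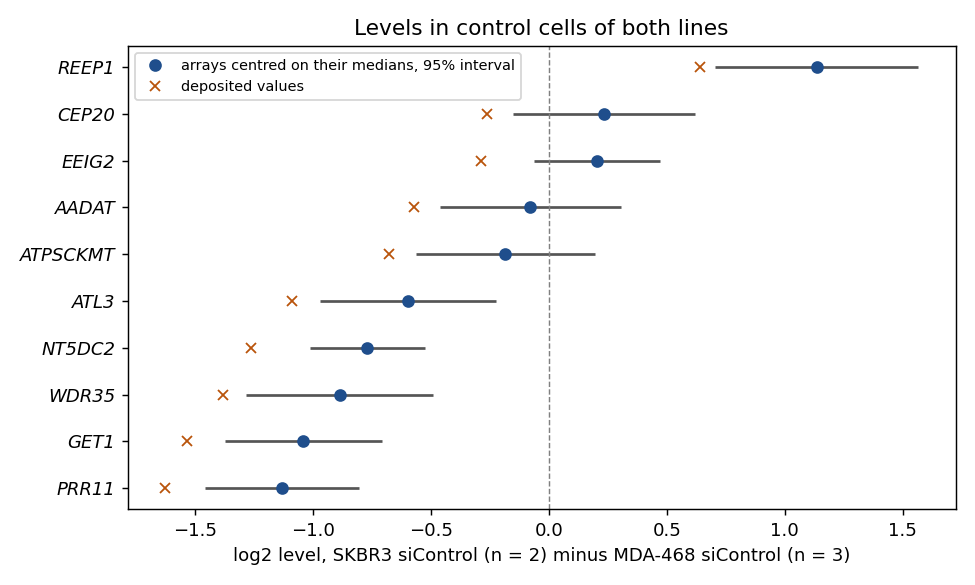
Difference in control level of the 10 genes, log2 SKBR3 siControl (n = 2) minus MDA-468 siControl (n = 3). Circles are values after centring each array on its median, with 95% intervals of the limma fit; crosses are deposited values. PRR11 and GET1 have the lowest circles and REEP1 the highest, and the crosses of CEP20 and EEIG2 lie on the other side of 0 from their circles.

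Promoters of 8 of the 10 were in the RefSeq promoter table (GRCh38.p14), which has no entry here for ATPSCKMT and WDR35. The 250 bases before 1 start per gene, the first listed, were searched on both strands for 11 short motifs. The same window of 27305 genes gave the background share. GET1 and AADAT have 3 listed starts each and REEP1 has 2, and their other starts were not searched. Of the 8 windows, 4 are printed, 5′ to 3′ on the strand of the gene, with motif matches in capitals. PRR11 was taken for its pair with SKA2, ATL3 and CEP20 for their many matches, and GET1 as a deep fall with none in its window. PRR11 is at chr17:59155496-59155745 on the plus strand, ATL3 at chr11:63671377-63671626 on the minus strand, CEP20 at chr16:15888604-15888853 on the minus strand and GET1 at chr21:39380076-39380325 on the plus strand.
PRR11: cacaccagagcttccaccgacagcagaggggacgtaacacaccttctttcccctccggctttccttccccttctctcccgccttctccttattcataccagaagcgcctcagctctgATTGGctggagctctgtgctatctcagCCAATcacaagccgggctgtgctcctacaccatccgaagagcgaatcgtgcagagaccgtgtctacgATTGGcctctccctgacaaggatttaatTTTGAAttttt
ATL3: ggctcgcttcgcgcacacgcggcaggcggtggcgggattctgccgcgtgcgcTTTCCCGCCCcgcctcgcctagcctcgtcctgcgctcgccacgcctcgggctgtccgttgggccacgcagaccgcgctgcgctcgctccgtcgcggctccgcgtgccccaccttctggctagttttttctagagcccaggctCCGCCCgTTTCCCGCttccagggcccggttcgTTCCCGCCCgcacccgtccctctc
CEP20: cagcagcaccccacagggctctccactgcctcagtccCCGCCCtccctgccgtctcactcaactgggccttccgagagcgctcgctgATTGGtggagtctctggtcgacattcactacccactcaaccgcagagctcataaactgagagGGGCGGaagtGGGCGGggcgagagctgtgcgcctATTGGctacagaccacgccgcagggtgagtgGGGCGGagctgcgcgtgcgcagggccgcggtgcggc
GET1: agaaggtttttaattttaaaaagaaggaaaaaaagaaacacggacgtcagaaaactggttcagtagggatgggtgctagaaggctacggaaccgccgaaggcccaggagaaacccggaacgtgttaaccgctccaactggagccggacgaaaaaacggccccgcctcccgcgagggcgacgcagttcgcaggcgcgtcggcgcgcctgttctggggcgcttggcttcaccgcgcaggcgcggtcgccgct

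No motif of the 11 was held by more than 4 of the 8 promoters. The CCAAT box (CCAAT), found in 33% of all promoters, lay in PRR11 (133, 106 and 39 bases upstream of the start), CEP20 (163 and 67) and NT5DC2 (215). The CHR element of cell cycle genes (TTTGAA, 13.6% of all) lay in PRR11, 11 bases upstream, and in AADAT, 162 bases upstream; its variant TTCGAA (1.2%) was in none. ATL3 held the E2F site TTTCCCGC (1.42% of all) 198 and 49 bases upstream and the E2F core GGCGGGAA (2.77%) 197 and 24 bases upstream. The first core overlaps the first site, and both cores overlap GC boxes. The GC box GGGCGG (42.3% of all) was in ATL3, CEP20, EEIG2 and NT5DC2, and the ETS site CCGGAAG (8.82%) in NT5DC2. The NRF1 site GCGCATGC (2.81%), the TATA box TATAAA (11.1%), the E-box CACGTG (6.49%) and the interferon response core (GAAA, any 2 bases, GAAA, 3.07%) were in none of the 8. GC content ran from 41.6% in AADAT to 72.8% in ATL3, around a median of 58% over all promoters. These matches describe the letters of the window only.

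PRR11 and SKA2 start 560 bases apart on opposite strands, head to head, and SKA2 encodes a kinetochore protein. SKA2 fell in SKBR3 (-0.89 ± 0.17, limma adjusted p = 0.00437) and changed by -0.17 in MDA-468 (adjusted p = 0.376), and the difference between the lines was called (-0.72, adjusted p = 0.0431). PRR11 changed by -1.28 and -1.74 in the same order. The SKBR3 change of SKA2 was -0.56 without siChe-1 replicate 2 and -1.22 without siChe-1 replicate 1. When SKBR3 was fitted alone, SKA2 had an adjusted p of 0.0552.

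The nearest protein-coding genes on both sides of the 10 numbered 20, of which 18 were measured and 12 tested. TAS2R1, SMG8, STAB1, MYH11, GALNTL6 and MATN3 were below the filter. In SKBR3 5 of the 12 fell and 0 rose, with a median of -0.17, where 17.1% of all genes tested were called lower and 6.64% higher. In MDA-468 7 fell and 1 rose, with a median of -0.30, where 27% were called lower and 16.4% higher. With 12 genes these counts are a description. Next to REEP1, MRPL35, a mitochondrial ribosomal protein, fell in both lines (-0.77 and -0.86), and so did HMGN1, a chromatin protein beside GET1 (-0.35 and -0.28), whose SKBR3 call was lost without either siControl array. HENMT1, a methyltransferase of small RNAs beside EEIG2, fell in both lines, with a change of -1.77 ± 0.12 in MDA-468 (limma adjusted p = 6.53e-07), where EEIG2 changed by -1.35, and of -0.53 in SKBR3 (adjusted p = 0.0255). The SKBR3 call was lost without siControl replicate 2 (adjusted p = 0.19) or siChe-1 replicate 2 (0.168). Beside AADAT, MFAP3L fell in SKBR3 (-0.50, adjusted p = 0.00362) and changed by -0.17 in MDA-468 (adjusted p = 0.092). CCT5 beside ATPSCKMT (-0.45), UQCC5 beside NT5DC2 (-0.80), PLAAT3 (-0.95) and RTN3 (-0.31), both beside ATL3, fell in MDA-468; their SKBR3 values of -0.12, -0.09, 0.22 and -0.02 did not pass the test. The RTN3 change in MDA-468 lost its call without siControl replicate 1 (-0.27) or 2 (-0.28), without siChe-1 replicate 1 (-0.23) or 2 (-0.28), and with the replicate block. ABCC1 beside CEP20 rose in MDA-468 (0.32, adjusted p = 0.00583), and KDM3A beside REEP1 and TTC32 beside WDR35 were not called in either line. Without siControl replicate 2 the SKBR3 count was 3, and with SKBR3 fitted alone it was 0.

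The 9 lists of relatives and partners of the 10 held 173 genes, of which 164 were measured and 156 tested. In SKBR3 62 fell, 1 rose and 93 were not called, with a median change of -0.29. In MDA-468 81 fell, 7 rose and 68 were not called, with a median of -0.25. Of all genes tested, 17.1% were called lower and 6.64% higher in SKBR3, and 27% lower and 16.4% higher in MDA-468, and the counts of each list below are to be read against these shares. None of the 156 matched the shallowest member in both lines, which the choice of the members for deep falls largely fixed. Of the 156, 24 lay below AATF in SKBR3 and 0 in MDA-468. The SKBR3 count of falls rested on single arrays and was 9 when SKBR3 was fitted alone. Leaving out an SKBR3 array leaves 1 array in its group, so the shared spread then comes from the other groups. Counts and p-values of such fits, above and below, are therefore unsure and show only that calls shift. The MDA-468 count of rises was 14 without either SKBR3 siChe-1 array. The single rise in SKBR3 was lost (0) without siControl replicate 1 and became 2 without either siChe-1 array.

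**Figure D5:**
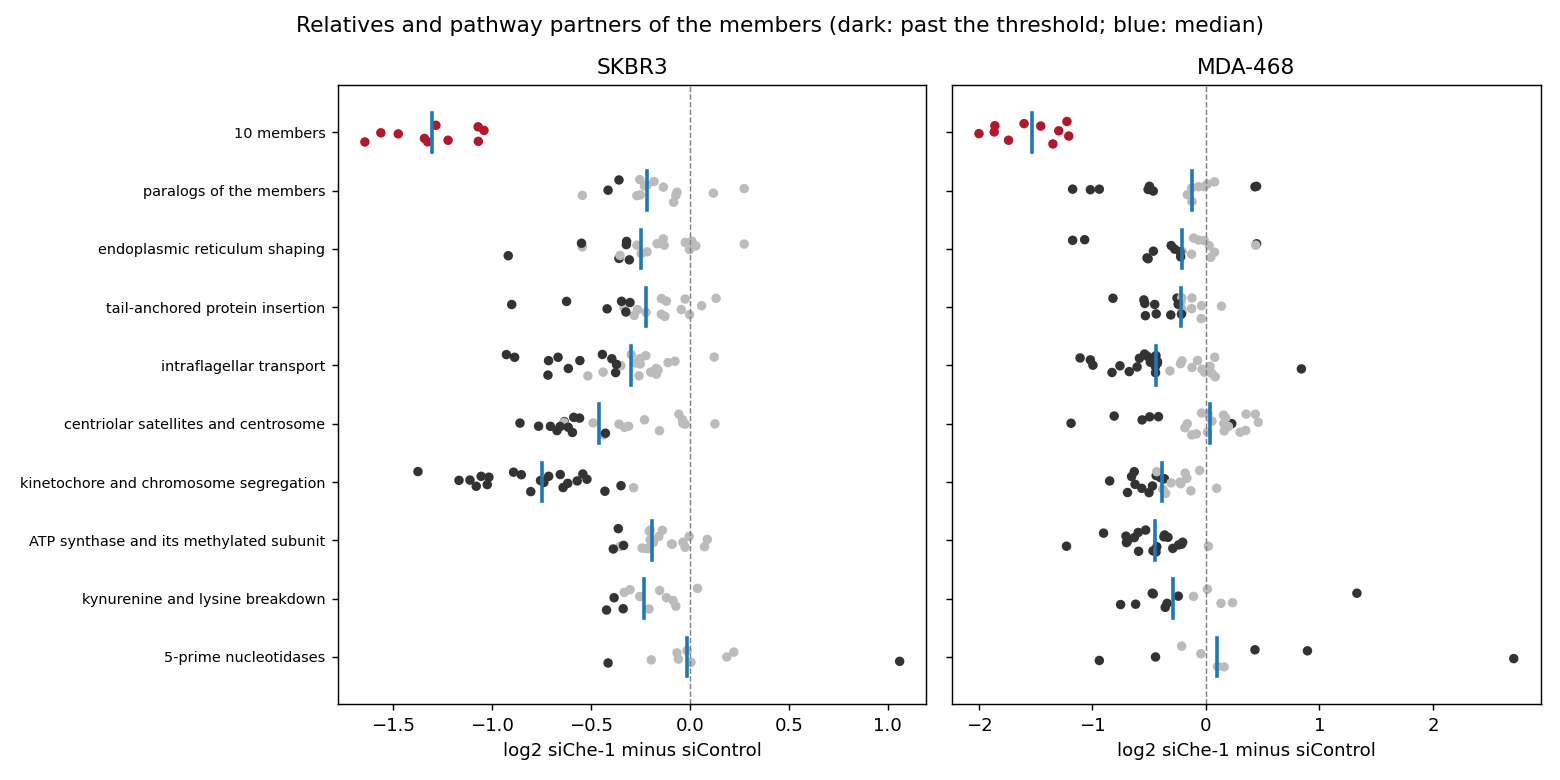
Change with siChe-1 (x axis, log2 siChe-1 minus siControl) of the 10 genes (red) and of the tested genes of 9 lists in SKBR3 and MDA-468. Dark points passed an adjusted p of 0.05, grey points did not, and blue bars are medians. The 10 lie left of every list median, which their choice for deep falls largely fixed. The kinetochore list has the lowest list median in SKBR3 (-0.75), and the ATP synthase list the lowest in MDA-468 (-0.45).

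Paralogs of the members were called in part. Of 15 tested, 2 fell in SKBR3 and 6 fell and 2 rose in MDA-468, with medians of -0.22 and -0.13. The SKBR3 count lies near the 17.1% of all genes called lower there and is no result about the paralogs. REEP5, which also bends tubules, fell in MDA-468 (-1.17 ± 0.10, limma adjusted p = 2.8e-06) and changed by -0.27 in SKBR3 (adjusted p = 0.126). REEP4 fell in both (-0.36 and -0.51), REEP3 rose in MDA-468 (0.45 ± 0.12, adjusted p = 0.0117), and REEP2 and REEP6 were not called. IFT122, the WDR35-like subunit of the same ciliary complex, fell in MDA-468 (-1.02 ± 0.08, adjusted p = 1.59e-06) with -0.18 in SKBR3, while WDR19 was called in neither. NT5DC1 fell in both lines (-0.41 and -0.94) and NT5DC3 rose in MDA-468 (0.43 ± 0.08, adjusted p = 0.00113). ANTKMT, the methyltransferase related to ATPSCKMT, fell in MDA-468 (-0.50) with 0.12 in SKBR3, and KYAT3, which like AADAT transaminates kynurenine, fell there too (-0.46). ATL1 (-0.54 in SKBR3, adjusted p = 0.0617, and -0.02 in MDA-468), CEP43, EEIG1 and KYAT1 were not called in either line, and NT5DC4 was below the filter. The SKBR3 count of 2 ranged from 0 without siControl replicate 1 to 8 without siChe-1 replicate 1, and was 1 without siControl replicate 2 or siChe-1 replicate 2. In MDA-468, 1 rise was left without siChe-1 replicate 3. With SKBR3 fitted alone, and with the replicate block, the SKBR3 count was 0.

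Genes that shape the endoplasmic reticulum fell in part. Of 19 tested, 6 fell in SKBR3, and in MDA-468 9 fell and 1, REEP3, rose; the medians were -0.25 and -0.21. SPAST, the microtubule-severing partner of atlastins and REEP1 in spastic paraplegia, fell in both lines (-0.55 ± 0.14, limma adjusted p = 0.0194, in SKBR3 and -1.07 ± 0.12, adjusted p = 2.7e-05, in MDA-468). LNPK, which stabilises tubule junctions, fell in SKBR3 (-0.92 ± 0.22, adjusted p = 0.0131) with -0.11 in MDA-468 (adjusted p = 0.668). TMEM33 fell in MDA-468 (-0.52). The SKBR3 count was 0 with that line fitted alone and 0 with the replicate block. The SKBR3 count was 2 without siControl replicate 1, 1 without siControl replicate 2 or siChe-1 replicate 2, 11 without siChe-1 replicate 1, and 3 without MDA-468 siControl replicate 1 or 3 or siChe-1 replicate 2. The MDA-468 falls numbered 5 without siControl replicate 1 or siChe-1 replicate 2, and REEP3 lost its call without siChe-1 replicate 3.

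Partners of GET1 act in the route that inserts tail-anchored proteins. GET1 was chosen for its depth, so smaller changes in its partners largely follow from the choice and are given as a description. CAMLG, the other subunit of the GET receptor, fell in SKBR3 (-0.42 ± 0.14, limma adjusted p = 0.0489) and in MDA-468 (-0.54 ± 0.11, adjusted p = 0.00245), beside -1.34 and -1.86 for GET1. GET3, which carries the cargo, changed by -0.12 and -0.22, and GET4 by 0.13 and -0.04, none of them called. BAG6, the upstream chaperone, fell in MDA-468 (-0.55). Of 19 tested genes of the route and its parallel insertases, 6 fell in SKBR3 and 10 in MDA-468 and 0 rose in either, with medians of -0.22 in both. MMGT1, a subunit of the EMC insertase, fell most in both (-0.90 and -0.82), and SEC62, of the translocon, fell in SKBR3 (-0.62). The SKBR3 count was 1 with that line fitted alone and 2 with the replicate block. In MDA-468 it was 7 without siControl replicate 1 of that line, 7 with the replicate block and 12 with the line fitted alone. Quantile normalization gave 7 falls and 1 rise in MDA-468.

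The ATP synthase list differed between the lines in its count. In MDA-468 19 of 20 tested genes fell, with a median of -0.45, and in SKBR3 3 fell, with a median of -0.19; the difference was not tested for the list. Of all genes tested, 27% were called lower in MDA-468 and 17.1% in SKBR3, and the SKBR3 count of the list lies near that share. The c subunit, which ATPSCKMT methylates, is encoded by ATP5MC1, ATP5MC2 and ATP5MC3. All of these fell in MDA-468 (-0.69, -0.70 and -0.33) and changed by -0.09, -0.02 and -0.14 in SKBR3 without being called. ATP5MJ fell most in MDA-468 (-1.23 ± 0.09, limma adjusted p = 8.74e-07) and also fell in SKBR3 (-0.39), as did ATP5PF (-0.70 and -0.34). ATP5PB fell in MDA-468 (-0.90). ATPAF1, an assembly factor, fell in SKBR3 (-0.36) and was the gene not called in MDA-468 (0.02). With SKBR3 fitted alone, and with the replicate block, the SKBR3 count was 0. The SKBR3 count was 0 without siControl replicate 2, 1 without siChe-1 replicate 2 and 7 without siChe-1 replicate 1.

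Around AADAT, 12 genes of kynurenine and lysine breakdown were tested. In SKBR3 AFMID (-0.38), DHTKD1 (-0.34) and ALDH7A1 (-0.42) fell and 0 rose, with a median of -0.23. In MDA-468 7 fell, led by ALDH7A1 (-0.75), AFMID (-0.62) and GCDH (-0.47), and KMO, which hydroxylates kynurenine, rose by 1.33 ± 0.11 (limma adjusted p = 2.5e-06); the median was -0.29. IDO1, the interferon-inducible enzyme that feeds the pathway, was below the filter and not tested; its mean went from 4.21 to 8.96 in MDA-468 and from 3.82 to 4.79 in SKBR3. KYNU, which cleaves kynurenine, changed by -0.21 and -0.11 and was not called. With SKBR3 fitted alone, and with the replicate block, 0 genes of the list fell in SKBR3. The SKBR3 falls numbered 0 without siControl replicate 1, siControl replicate 2 or siChe-1 replicate 2, 7 without siChe-1 replicate 1, and 1 without any of the 3 MDA-468 siControl arrays or siChe-1 replicate 2. The MDA-468 rises numbered 2 without either SKBR3 siChe-1 array.

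Around WDR35, 29 genes of intraflagellar transport were tested. In SKBR3 11 fell and 0 rose (median -0.30), and in MDA-468 17 fell and 1, DYNC2I1, rose by 0.84 ± 0.10 (median -0.44). IFT80 (-0.93 and -0.83), KIFAP3 (-0.61 and -0.59) and IFT172 (-0.37 and -1.11) fell in both. CLUAP1 fell in SKBR3 (-0.71 ± 0.09, limma adjusted p = 0.00021) with -0.01 in MDA-468, and IFT22 fell in MDA-468 (to 50.2% of control, adjusted p = 1.33e-06) with -0.25 in SKBR3. In the complex that holds WDR35, IFT122 and IFT43 fell in MDA-468, TTC21B fell in both (-0.67 and -0.45), and IFT140 and WDR19 were not called. The SKBR3 count of the list was 2 with that line fitted alone and 4 with the replicate block. Falls in SKBR3 numbered 4 without siControl replicate 2, 6 without siChe-1 replicate 2 and 18 without siChe-1 replicate 1.

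Around CEP20, 24 genes of centriolar satellites and the centrosome were tested. In SKBR3 11 fell and 0 rose (median -0.46). In MDA-468 5 fell and CEP72 rose (0.23), and the median was 0.04. The MDA-468 falls lie near the 27% of all genes tested called lower there and are no result about the list. PCM1, the scaffold of the satellites, fell in both lines (-0.63 and -0.42), as did BBS4 (-0.71 and -1.19), MIB1 (-0.67 and -0.50) and CEP78 (-0.59 and -0.56). CEP97 fell in SKBR3 (-0.77 ± 0.12, limma adjusted p = 0.00131) and TBC1D31 in MDA-468 (-0.81 ± 0.10, adjusted p = 5.42e-05). CEP63 fell in SKBR3 (-0.59) with 0.02 in MDA-468. The SKBR3 count was 1 with that line fitted alone and 4 with the replicate block. The SKBR3 count was 3 without siControl replicate 2, 4 without siChe-1 replicate 2 and 19 without siChe-1 replicate 1. The MDA-468 rises numbered 0 without siControl replicate 2, siChe-1 replicate 2 or siChe-1 replicate 3, 3 without siChe-1 replicate 1, and 6 without either SKBR3 siChe-1 array.

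Beside PRR11, the kinetochore and chromosome segregation list had the highest count in SKBR3, where 21 of 22 tested genes fell (median -0.75) and MIS12 was not called. In MDA-468 11 fell (median -0.39), and 0 rose in either line. CENPF (-1.08 ± 0.11 and -0.62 ± 0.09), NDC80 (-1.06 ± 0.15 and -0.37 ± 0.12) and NUF2 (-1.37 ± 0.22 and -0.66 ± 0.18), which bind microtubules or build the outer kinetochore, fell in both lines. SPC24 (-0.54 and -0.85) and the checkpoint protein MAD2L1 (-0.62 and -0.63) did as well. In SKBR3 the count was 8 without siControl replicate 2, 13 without siChe-1 replicate 2 and 5 when SKBR3 was fitted alone. The MDA-468 count was 8 without siControl replicate 1 or siChe-1 replicate 1 of that line and 9 without its siControl replicate 2. With the replicate block it was 7, and with MDA-468 fitted alone 18.

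Nucleotidases, grouped with NT5DC2 by domain, were called in both directions. Of 9 tested, 1 fell (NT5DC1) and 1 rose in SKBR3 (median -0.01), and 2 fell and 3 rose in MDA-468 (median 0.10). Among all genes tested, 17.1% were called lower and 6.64% higher in SKBR3, and 27% lower and 16.4% higher in MDA-468. The SKBR3 counts and the MDA-468 falls lie near these shares and are no result about the list. NT5C3A, an interferon-inducible enzyme that removes phosphate from pyrimidine nucleotides, rose in both lines (1.06 ± 0.23, limma adjusted p = 0.0086, and 0.89 ± 0.19, adjusted p = 0.00273). NT5E, the ecto-enzyme CD73, rose by 2.71 ± 0.09 in MDA-468 (adjusted p = 1.45e-09) with -0.01 in SKBR3, where it lay below the filter level at 4.53. NT5C3B fell in MDA-468 (-0.44). With SKBR3 fitted alone, and with the replicate block, 0 genes of the list fell and 1 rose in SKBR3. The SKBR3 fall was lost without siControl replicate 1, siControl replicate 2 or siChe-1 replicate 2, and the SKBR3 rises numbered 0 without siControl replicate 1 and 2 without siChe-1 replicate 2.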

How the data were processed

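The arrays measured total RNA of 10 samples in 4 groups, taken from the labels. The authors deposited log2 intensities per probe set, computed by RMA with Affymetrix Expression Console according to the submitters' processing notes, with versions and the set of arrays normalized at once not given in the sources used here. RMA understates fold changes of dim probe sets. The number of arrays limits the precision. Of 33297 probe sets, 19460 had 1 gene symbol, 1754 several and 12083 none. Symbols were updated by gene ID through RefSeq (19429), and the brightest probe set was kept for 769 genes with several. Genes under the 30th percentile of mean log2 value (6.03) were left out.

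A limma 3.58.1 model (R 4.3.3) of 4 group means was fitted to all 10 arrays, with 6 residual and 4.92 prior degrees of freedom. The code was also run on simulated data with planted changes. The noise there was independent for each gene and array, so that run does not cover shifts shared between arrays and is no check of the calls. Percent of control is the fold change of log2 means. A planned test of control levels is given as values only. The replicate numbers do not pair the samples. The members and lists were chosen with earlier results of these data known. The genes named were the members, AATF, the 5 nearest in profile, the 10 genes around the end of the ranking, up to 3 genes of each list with the smallest p per line, genes behind counts of 5 or fewer, and measured neighbours and paralogs. Other genes named were chosen after their values were seen. Alternatives were the filter, each line alone, a replicate block, quantile normalization, centring, probe set means and each array left out.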

Additional observations from a re-analysis of the deposited data

Results flagged for a closer look

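Of 28 genes compared (AATF, the 15 tested paralogs and the 12 tested neighbours), 12 changed differently in the lines by the limma test of the difference in change (SKBR3 minus MDA-468), beside 19.2% of all genes tested. AATF differed by 1.05 (adjusted p = 0.000215). Among neighbours, HENMT1 differed by 1.24 (adjusted p = 0.00126), PLAAT3 by 1.17 (0.00076) and UQCC5 by 0.71 (0.00716), each lower in MDA-468. ABCC1 (-0.54, adjusted p = 0.0119), which changed by -0.21 in SKBR3 without being called, and SKA2 (-0.72, adjusted p = 0.0431) had the lower change in SKBR3.

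Among paralogs, REEP5 differed by 0.91 (adjusted p = 0.00213), IFT122 by 0.84 (0.000936), ANTKMT by 0.62 (0.0285) and NT5DC1 by 0.53 (0.0323), with the deeper fall in MDA-468. NT5DC3 (-0.50, adjusted p = 0.0199) and REEP3 (-0.66, adjusted p = 0.0349) rose in MDA-468 and were not called in SKBR3, where they changed by -0.06 and -0.22.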

How the results depend on the processing

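The falls of AATF and the medians of the 10 genes kept their direction under all 17 alternatives, and AATF its call in both lines. Several alternatives could not change a direction, since a gene's change in a line is the difference of that line's group means. The filter, each line alone, the replicate block and left-out arrays of the other line do not alter that difference. The members were also chosen for deep falls. With 1 array left out, AATF ran from -0.72 to -0.60 in SKBR3 and from -1.77 to -1.67 in MDA-468, and the median of the 10 from -1.52 to -1.08 and from -1.61 to -1.47. ATL3 changed by -1.17 and -0.98 as the mean of its probe sets. With the filter at the 50th percentile, REEP1 and TTC32 were not tested.

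SKBR3 counts depended on the shared spread, and leaving out an SKBR3 array leaves 1 array in its group, so counts from such fits are unsure. With each line alone, related genes lower in SKBR3 went from 62 to 9, neighbours from 5 to 0, and related genes higher in MDA-468 from 7 to 14. With 1 array left out these ran from 18 to 93, 3 to 5 and 5 to 14, and related genes higher in SKBR3 from 0 to 2. Quantile normalization gave 14 related genes higher in MDA-468, and no filter gave 2 higher in SKBR3. Same-numbered SKBR3 arrays deviated oppositely (r = -0.556) and MDA-468 ones with r of -0.491, 0.002 and -0.276, so the numbers were not used to pair; the replicate block gave 22 related genes and 3 neighbours lower in SKBR3, and 64 related genes lower in MDA-468. The block lies within a line and gives no value for control levels. The crossed pairing in SKBR3, chosen after seeing the data, gave 79 lower and 1 higher. Control levels reversed for CEP20 (-0.26) and EEIG2 (-0.29) without centring and for AADAT (0.01) with quantile normalization. The cause of these shifts was not tested.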
